A study of Mus musculus with 3 samples.

Results

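The histone genes of the Hist clusters were taken as every gene whose symbol starts with Hist1h, Hist2h, Hist3h or Hist4h, a rule on names that uses no measured value. It found 63 of the 20368 genes in the table: 6 for the linker histone H1, 16 for H2A, 16 for H2B, 12 for H3 and 13 for H4. In the mm10 genome the Hist1 cluster, with 51 of them, lies on chromosome 13, the Hist2 cluster, with 9, on chromosome 3, the Hist3 pair on chromosome 11 and the single Hist4 gene on chromosome 6. The cells came from the prefrontal cortex of mice killed on postnatal day 6, after 1 inhalation exposure to about 3% sevoflurane, a volatile anaesthetic. All 3 libraries (1, 2 and 3) belong to this 1 group, both sexes were used, and no unexposed group is part of the comparison, so nothing here bears on the anaesthetic. Single-cell libraries were made on the 10x Genomics Chromium platform. The labels give no strain, no genotype and no animal behind each library. Each p-value therefore rests only on the spread between these libraries, pooled over classes and states, and this spread may be technical.

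The comparison is between dividing and resting cells. Dividing cells had at least 2 of the 4 proliferation genes Mki67, Top2a, Cenpf and Birc5 above 0, and resting cells had none. It was made within 5 classes, each defined by a pair of genes above 0: astrocyte (Aqp4 and Gja1), OPC, the oligodendrocyte precursor (Pdgfra and Lhfpl3), neuroblast (Dlx1 and Sp9), microglia (P2ry12 and Csf1r) and endothelium (Cldn5 and Flt1). Dividing and resting cells numbered 181 and 2884 for astrocyte, 484 and 1901 for OPC, 529 and 1134 for neuroblast, 453 and 981 for microglia, and 129 and 716 for endothelium. No histone gene was used to choose them.

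A cell that copies its DNA must also make enough histone protein to package the copy. Replication-coupled histone genes are switched on in S phase, the part of the cell cycle in which DNA is copied. Their messenger RNA classically ends not in a poly(A) tail but just after a short stem-loop, which the protein SLBP binds, and it is degraded when replication stops. Some genes of the same clusters also give spliced or polyadenylated messages outside S phase, and cells that no longer divide rely on these and on replacement histones encoded elsewhere, such as H3.3 and H2A.Z. H2A, H2B, H3 and H4 form the core around which DNA is wound, and H1 binds the linker DNA between cores. Chromium libraries are primed on poly(A), so the values below count only the molecules of these genes that the priming reached.

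The stem-loop is the sequence feature that defines replication-coupled histone messages, and it is shown here for the members on which the results turn. A search of the longest GENCODE vM21 transcript of each gene (GRCm38) after the stop codon looked for 16 bases: an arm of 6 that opens with GG and ends in T, a loop TNTN, and an arm of 6 that opens with A and ends in CC, with at least 5 of the 6 pairs complementary. G opposite T was also counted as a pair. The search found this in 44 of the 63 members (69.8%), against 0.892% of 21857 other protein-coding genes. Over any annotated transcript it was 45 members. For 11 members no base is annotated after the stop codon, so that no match was possible; among the 50 members with at least 16 bases there the share was 88.0%, against 0.933% of 20909 other genes. The search ran on the transcript strand alone. Capitals mark the 16 matched bases.
Hist1h2ap: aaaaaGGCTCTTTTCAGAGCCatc
Hist1h2ae: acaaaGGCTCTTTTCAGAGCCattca
Hist1h4d: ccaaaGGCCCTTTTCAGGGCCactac
Hist2h2ac: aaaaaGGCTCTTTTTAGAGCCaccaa
Hist1h1e: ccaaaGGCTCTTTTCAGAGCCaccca
Hist1h1c: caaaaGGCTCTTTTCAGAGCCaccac
Hist3h2ba: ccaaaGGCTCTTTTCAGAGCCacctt
Hist3h2a: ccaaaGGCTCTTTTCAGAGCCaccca
The matched 16 bases were identical in Hist1h2ap, Hist1h2ae, Hist1h1e, Hist1h1c, Hist3h2ba and Hist3h2a. What came after them differed. The annotated Hist1h2ap transcript ended 3 bases after the stem-loop, while those of Hist1h2ae, Hist1h4d, Hist1h1c, Hist1h1e, Hist3h2ba and Hist3h2a went on for 151, 770, 840, 1153, 169 and 1643 bases. The poly(A) signal AATAAA occurred 1 time in that stretch in Hist1h2ae, Hist1h1c, Hist3h2ba and Hist3h2a, and 0 times in Hist1h2ap, Hist1h4d and Hist1h1e. Hist1h2bc had no match in its 742 bases after the stop codon, which hold 1 AATAAA. Hist1h1b and Hist1h2an are annotated with no base after the stop codon, and Hist1h1a with 48, so the stem-loop could not be looked for in Hist1h1b and Hist1h2an.

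The genes themselves lie, in GRCm38 coordinates, at chr13:21833026-21833507 (Hist1h2ap, minus strand), chr13:21779883-21780625 (Hist1h1b, minus), chr13:23570517-23571220 (Hist1h2ae, minus), chr13:23620629-23622558 (Hist1h1e, minus), chr13:23581598-23582735 (Hist1h4d, plus), chr13:23738808-23740367 (Hist1h1c, plus), chr13:23684199-23692908 (Hist1h2bc, plus), chr11:58948920-58949533 (Hist3h2ba, plus) and chr11:58954685-58956830 (Hist3h2a, plus). Several have near copies, and how reads that fit 2 copies were counted is not given in the sources used here. The coding parts of Hist1h2ap and Hist1h2ao were 100% identical, those of Hist1h2ae and Hist1h2ad 99.2%, those of Hist1h2an and Hist1h2ag 98.98%, and those of Hist1h2bc and Hist1h2br 99.5%. The nearest coding part was 90.8% identical for Hist3h2ba and 89.8% for Hist3h2a. The annotated span of Hist1h2be runs into that of Hist1h1e on the same strand. Values of Hist1h2ap, Hist1h2ae, Hist1h2an, Hist1h2bc and Hist1h1e are uncertain to that extent. The last 90 bases of each transcript were also set against those of members of the same type. The nearest was 52.5% identical for Hist1h2ap, 48.9% for Hist1h2ae, 43.0% for Hist1h2bc, 45.2% for Hist1h1e and 94.4% for Hist1h2an. These shares also fall where annotated ends lie at different places. For Hist1h2ap the nearest was Hist1h2ao, annotated to end 31 bases after the stem-loop, against 3 for Hist1h2ap. Their last 90 bases are thus shifted, and the 52.5% does not show that the 2 messages differ in sequence.

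The promoters of the 2 members that rose most with division, and of 2 members with other patterns, are shown to set them side by side. They are RefSeq sequences of GRCm38.p6, from 250 bases before to 50 bases after the annotated start, read on the gene's own strand. They cover chr13:21833426-21833725 (Hist1h2ap), chr13:21780576-21780875 (Hist1h1b), chr11:58948661-58948960 (Hist3h2ba) and chr13:23738557-23738856 (Hist1h1c). Capitals mark CCAAT and TATAAA on the printed strand and ATTGG and TTTATA, their reverse complements, on the other. Another motif, ATTTGCAT, is in none of the 4.
Hist1h2ap: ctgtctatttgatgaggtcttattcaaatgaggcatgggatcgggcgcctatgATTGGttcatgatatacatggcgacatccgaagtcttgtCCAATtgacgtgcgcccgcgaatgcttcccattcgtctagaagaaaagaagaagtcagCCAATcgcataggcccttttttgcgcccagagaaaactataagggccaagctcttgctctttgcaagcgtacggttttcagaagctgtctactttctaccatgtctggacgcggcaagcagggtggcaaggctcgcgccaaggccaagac
Hist1h1b: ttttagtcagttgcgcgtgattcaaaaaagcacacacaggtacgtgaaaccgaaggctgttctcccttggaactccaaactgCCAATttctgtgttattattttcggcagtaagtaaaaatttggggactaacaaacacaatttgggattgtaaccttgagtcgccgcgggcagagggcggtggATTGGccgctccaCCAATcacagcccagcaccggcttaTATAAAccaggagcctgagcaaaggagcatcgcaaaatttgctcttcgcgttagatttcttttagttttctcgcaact
Hist3h2ba: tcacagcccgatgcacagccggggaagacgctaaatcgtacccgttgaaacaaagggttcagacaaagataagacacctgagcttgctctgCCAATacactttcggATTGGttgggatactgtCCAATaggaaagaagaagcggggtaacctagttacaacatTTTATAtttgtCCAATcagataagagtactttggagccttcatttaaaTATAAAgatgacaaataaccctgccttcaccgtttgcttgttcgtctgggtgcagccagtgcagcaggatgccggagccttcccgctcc
Hist1h1c: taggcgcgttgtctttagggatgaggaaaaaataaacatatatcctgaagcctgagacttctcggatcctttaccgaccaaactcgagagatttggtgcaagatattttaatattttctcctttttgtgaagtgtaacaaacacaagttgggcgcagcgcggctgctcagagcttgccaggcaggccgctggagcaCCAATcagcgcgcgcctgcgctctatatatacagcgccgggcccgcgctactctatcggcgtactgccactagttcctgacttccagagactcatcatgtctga
Hist1h2ap held 3 CCAAT matches, Hist1h1b 3, Hist3h2ba 4 and Hist1h1c 1. TATAAA was found 1 time in Hist1h1b and 2 times in Hist3h2ba. The table held 59 promoters of 58 members, Hist1h2be having a pair; CCAAT was present in 84.7% of the 59, against 37.3% of 32792 other promoters of the same length, TATAAA in 55.9% against 13.5%, and ATTTGCAT in 20.3% against 1.70%. CCAAT was in every H1, H2A, H2B and H3 promoter and in 3 of the 12 H4 promoters, whereas ATTTGCAT was in 6 of 16 H2A and 6 of 15 H2B promoters and in none of the others. Hist3h2ba, which fell in dividing OPC and neuroblast cells, carried more CCAAT matches than Hist1h2ap. Whether the number of matches goes with the change in level was not tested.

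The 3 libraries held 4775, 5134 and 4283 cells. The authors' values, once the natural log was undone, were counts already corrected for depth, 4422 to 8135 per cell, and the raw depth is unknown. Each cell was scaled here to a total of 1000000 (CPM), and a level is the mean CPM over the cells of a class, state and library. Dividing cells had more detected genes than resting cells in 4 classes: library medians were 3152 to 3230 against 2658 to 2824 in astrocyte, 3241.5 to 3381.5 against 2448.5 to 2727 in OPC, 2725 to 2813 against 1665 to 1701 in neuroblast and 2199 to 2336 against 1705 to 1892 in microglia. In endothelium the medians overlapped, at 2838 to 2907 and 2831 to 2904. Called doublets, 1.52 to 2.51% of a library, were left out, and 90 barcode sequences occurred in more than 1 library. The 5 markers of each class include the pair of genes that defines it, so their sum was bound to favour that class. The sum was highest there in dividing and in resting cells. Transcripts of 3 erythroid markers were found in all classes, at summed means of 2180 to 6160 CPM in dividing and 4014 to 14589 CPM in resting cells, highest in endothelium, and Alas2 was present. Transcripts of 3 mural cell markers summed to 2568 CPM in dividing and 1951 CPM in resting endothelium, and to at most 241 and 284 CPM in the other classes. The part of these cells in the results was not tested.

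Most members were rare. The number of cells with a value above 0 went from 2 of 14192 for Hist1h1t, a testis H1, to 5955 for Hist1h1e. The level filter, a mean of 10 CPM or more taken over the 10 groups of class and state, was passed by 15 members: 5 of 6 H1, 6 of 16 H2A, 2 of 16 H2B, 2 of 13 H4 and 0 of 12 H3. The other 48 were above 0 in between 2 and 391 cells, the most being Hist2h3c1, an H3 gene. In 8 of the 15 the resting mean was below 10 CPM, so that these passed through their dividing cells and had to differ. They were Hist1h1a, Hist1h1b, Hist1h1d, Hist2h2ac, Hist1h2ab, Hist1h2an, Hist1h4d and Hist1h4i. Counts over the 15, and the p-values of these 8 for dividing against resting cells, are therefore a description.

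In dividing cells the summed level of the 63 members was 2392, 2410 and 2201 CPM in libraries 1, 2 and 3, taking the mean of the 5 classes, against 648, 606 and 561 CPM in resting cells. Every dividing value lay above every resting one. Most of this difference lay in members that were scarce in resting cells. The 58 members other than the 5 named further on as detected at rest summed to 1632, 1627 and 1446 CPM in dividing cells, against 102, 89.0 and 73.8 CPM in resting cells. The 5 detected at rest summed to 766 ± 15.2 CPM in dividing and 517 ± 29.5 CPM in resting cells (SD, n = 3 libraries).

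The limma fit on log2(mean CPM + 10), with library as a block, was run on 9831 genes, with Benjamini-Hochberg adjustment over all of them. Averaged over classes, 13 members rose in dividing cells at an adjusted p below 0.05, where 25.8% of all genes tested did, and 2 fell, where 18.4% did. With no level filter and 19751 genes, 44 of the 63 members rose (14.3% of all genes) and 3 fell (11.2%), namely Hist2h3c1, Hist3h2ba and Hist3h2a. The median difference was then 0.29 over the 63 members and -0.00295 over all genes. All differences are on this log2 scale, which understates the change of low genes. Centring each group on its median gene lowers the averages by 0.15 and changed none of these 15 calls.

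**Figure D1:**
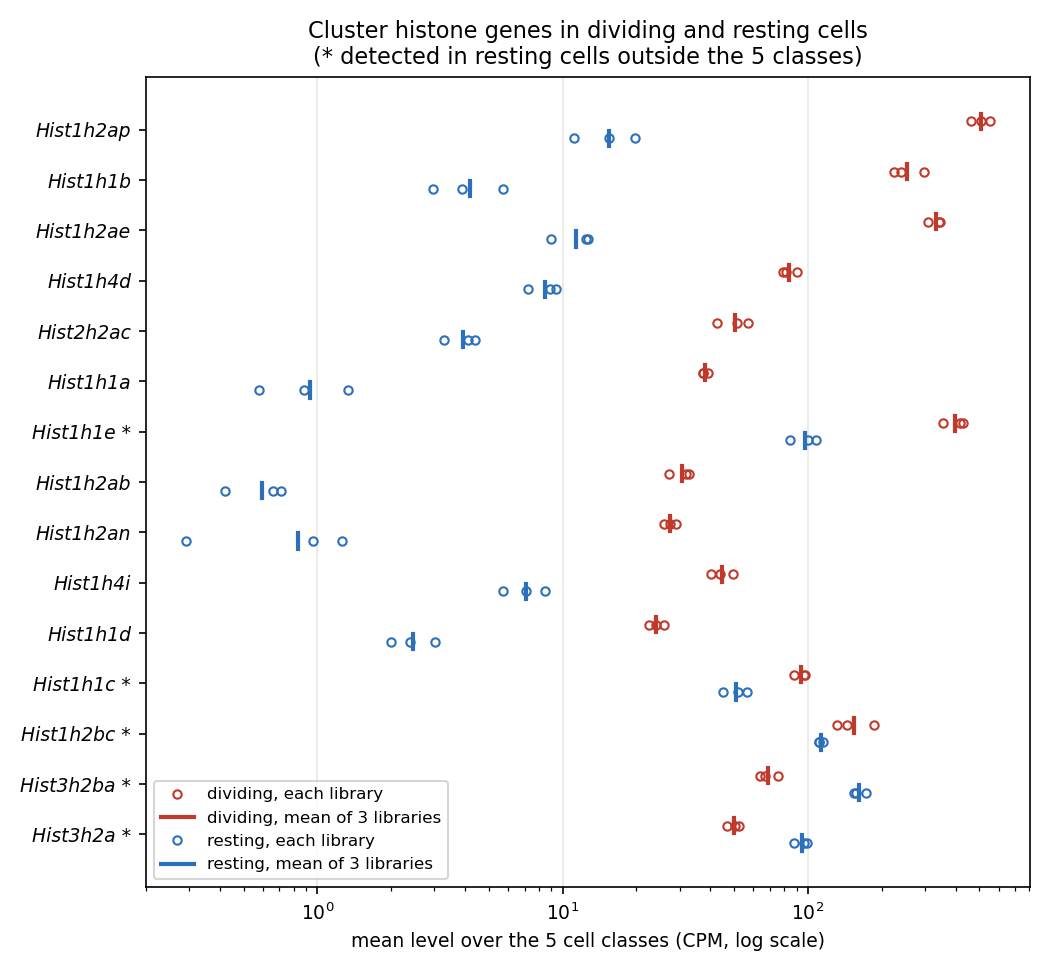
Level of the 15 members past the filter in dividing (red) and resting (blue) cells, in CPM on a log axis, each point 1 library and the mean of the 5 classes; a star marks members detected at rest. Hist1h2ap stands at 464 to 550 CPM in dividing and 11.1 to 19.6 CPM in resting cells, while the 2 states come close for Hist1h2bc and lie in the opposite order for Hist3h2ba and Hist3h2a.

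Among the H2A genes, whose product pairs with H2B in the core, Hist1h2ap had 550, 506 and 464 CPM in dividing cells of libraries 1, 2 and 3, against 19.6, 15.5 and 11.1 CPM in resting cells. The states did not overlap in any class, and the average difference was 4.39 ± 0.08 (SE; adjusted p = 5.43e-28, limma). Hist1h2ae had 347, 343 and 309 CPM in dividing and 12.4, 12.7 and 8.93 CPM in resting cells, a difference of 3.92 ± 0.09 (adjusted p = 1.03e-25, limma). It was likewise apart in every library. Of the other H2A members, Hist2h2ac averaged 50.5 CPM in dividing and 3.93 CPM in resting cells, Hist1h2ab 30.6 and 0.596 CPM, and Hist1h2an 27.5 and 0.836 CPM, and all 3 rose, by 2.08, 1.85 and 1.71. The 16 H2A members together summed to 1062 ± 72.8 CPM in dividing and 133 ± 14.1 CPM in resting cells.

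The linker histones rose as well, and they differed in how much was present at rest. Hist1h1b (H1.5) had 239, 298 and 224 CPM in dividing and 5.73, 3.90 and 2.96 CPM in resting cells, a difference of 4.16 ± 0.09 (adjusted p = 1.92e-26, limma). Hist1h1a (H1.1) averaged 38.0 and 0.930 CPM, with a difference of 1.99, and Hist1h1d (H1.3) 24.1 and 2.46 CPM, with 1.41. Hist1h1b, Hist1h1a and Hist1h1d passed the filter through their dividing cells. Hist1h1e (H1.4) kept a sizeable level at rest: it had 415, 429 and 354 CPM in dividing cells and 107, 100 and 84.8 CPM in resting cells, a difference of 1.96 ± 0.10 (adjusted p = 9.71e-17, limma). Hist1h1c (H1.2) had 96.0, 87.8 and 97.8 CPM in dividing and 56.5, 51.9 and 44.9 CPM in resting cells, a difference of 0.87 ± 0.07 (adjusted p = 8.24e-12, limma). The libraries of the 2 states were apart in all of these H1 genes.

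For H4, Hist1h4d had 90.2, 81.4 and 79.3 CPM in dividing and 8.88, 9.35 and 7.22 CPM in resting cells, a difference of 2.28 ± 0.08 (adjusted p = 5.94e-20, limma). Hist1h4i, the other H4 gene past the filter, averaged 44.5 and 7.08 CPM and rose by 1.49. Both H4 genes passed the filter through their dividing cells. The 13 H4 members summed to 147 CPM in dividing and 23.0 CPM in resting cells. H3, which pairs with H4 and is needed in equal amount in the nucleosome, had few counts: its 12 members summed to 45.3 ± 11.3 CPM in dividing and 10.2 ± 0.7 CPM in resting cells, and none passed the filter. In the fit without a filter, Hist1h3c, with 12.9 CPM in dividing cells, rose by 1.05 (adjusted p = 2.00e-07, limma). Hist2h3c1 fell by 0.30 in that fit (adjusted p = 0.00245), with 1.68 CPM in dividing and 4.67 CPM in resting cells.

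In the mean of the 5 classes, H2B was the only one of the 5 types whose summed level was not higher in dividing cells: its 16 members reached 245, 265 and 301 CPM in dividing cells and 293, 277 and 278 CPM in resting cells, and the libraries overlapped. The classes went both ways. The H2B sum was 271 CPM in dividing and 125 CPM in resting microglia, where the libraries did not overlap, and 240 and 203 CPM in astrocyte and 208 and 165 CPM in endothelium, where they did. It was 415 and 659 CPM in dividing and resting neuroblast, without overlap, and 218 and 264 CPM in OPC, with the libraries overlapping. The sum was made up mainly of Hist1h2bc and Hist3h2ba. Hist1h2bc had 131, 144 and 187 CPM in dividing and 111, 111 and 116 CPM in resting cells. The libraries did not overlap in this mean, and the rise was small, 0.47 ± 0.08 (adjusted p = 9.47e-06, limma). Hist3h2ba had 66.9, 75.4 and 63.5 CPM in dividing cells, against 172, 158 and 154 CPM in resting cells, and fell by 0.45 ± 0.09 (adjusted p = 0.000177, limma). By cluster, Hist1 summed to 2141 and 331.5 CPM in dividing and resting cells and Hist2 to 73.3 and 16.6 CPM. The Hist3 pair summed to 118 ± 3.3 CPM in dividing and 256 ± 14.5 CPM in resting cells.

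Members detected at rest were picked in 2178 resting cells that had none of the 5 class definitions and so entered no comparison; a member had to reach 10 CPM there in every library. Hist3h2ba qualified with 146, 127 and 124 CPM, Hist1h2bc with 114, 80.6 and 90.7 CPM, Hist1h1e with 91.3, 88.8 and 73.8 CPM, Hist3h2a with 89.1, 80.6 and 70.1 CPM, and Hist1h1c with 36.3, 28.4 and 33.8 CPM. Just outside were Hist1h2ap with 16.3, 8.76 and 4.70 CPM, and Hist1h2ae and Hist1h4d, with means of 9.23 and 8.86 CPM. At a limit of 30 CPM in every library, 4 of the 5 qualified and Hist1h1c did not. Apart from Hist1h1e, the 5 are genes known to give polyadenylated or S-phase-independent messages. The other genes of that kind, Hist2h2be and Hist4h4, were above 0 in 385 and 101 cells.

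**Figure D2:**
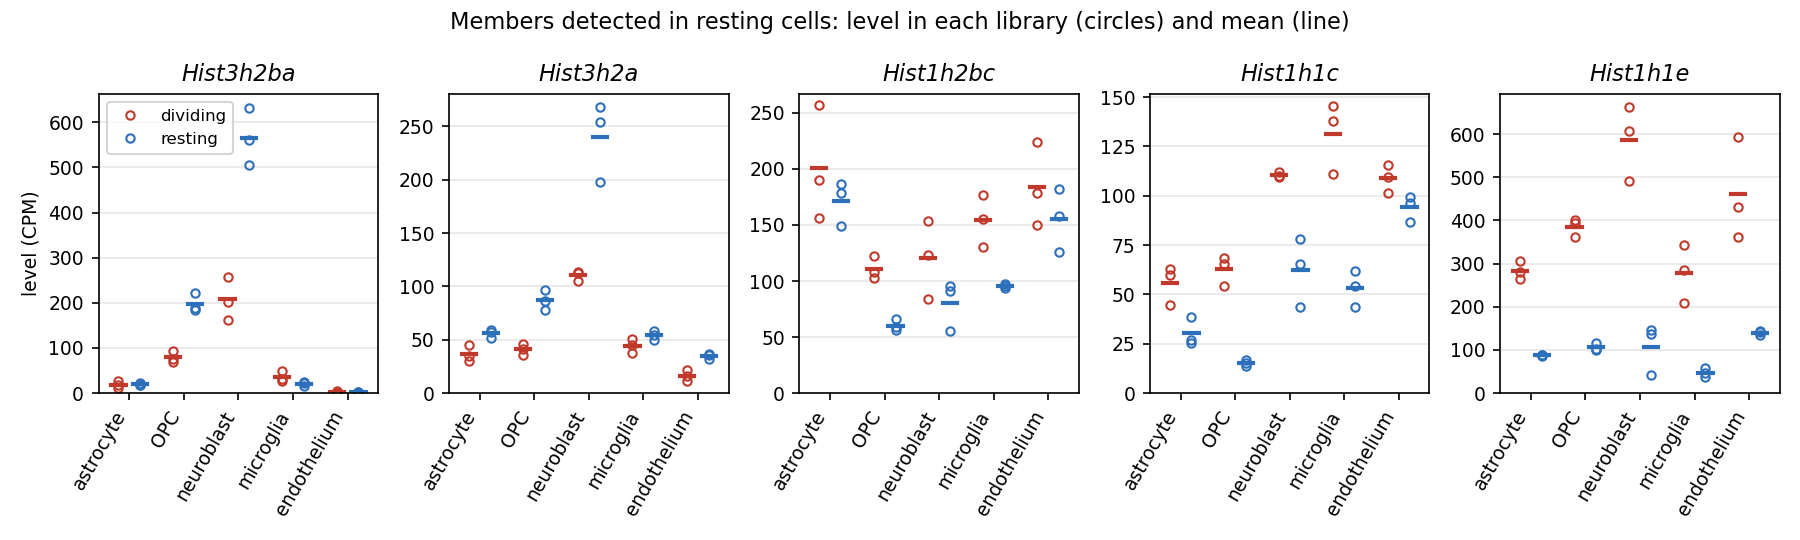
Level in CPM of the 5 members detected at rest, by class, with 1 point per library, dividing (red) left of resting (blue). In neuroblast, Hist3h2ba averages 208 CPM in dividing and 566 CPM in resting cells and Hist3h2a 111 and 240 CPM, whereas Hist1h1e is higher in dividing cells of every class.

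Hist3h2ba, an H2B gene, had very different levels by class. In neuroblast it had 202, 258 and 163 CPM in dividing cells, against 632, 560 and 505 CPM in resting cells, a fall of 1.42 (adjusted p = 2.29e-06, limma). In OPC it had 75.8, 69.0 and 93.4 CPM in dividing and 188, 184 and 221 CPM in resting cells, a fall of 1.22 ± 0.21 (adjusted p = 3.92e-05), which missed the threshold with a pseudocount of 1 CPM (adjusted p = 0.0549). The libraries of the 2 states were apart in both classes. In microglia the values were 30.3, 25.9 and 49.9 CPM in dividing and 15.2, 23.4 and 24.5 CPM in resting cells, a difference of 0.53 that did not pass (adjusted p = 0.098), although it did with a library block per class (adjusted p = 0.0361). In astrocyte it averaged 18.9 and 19.5 CPM, and in endothelium 1.804 and 2.37 CPM, with differences of -0.06 and -0.09 that did not pass. The class-by-state interaction of Hist3h2ba had an adjusted p of 2.02e-05.

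Hist3h2a, its neighbour in the Hist3 cluster and an H2A gene, had 50.5, 46.7 and 52.3 CPM in dividing and 98.8, 96.6 and 88.1 CPM in resting cells over the 5 classes, and fell by 0.70 ± 0.06 (adjusted p = 2.03e-10, limma). It fell in 4 classes: by 1.04 in neuroblast, 0.93 in OPC, 0.79 in endothelium and 0.51 in astrocyte, the last of which was lost without library 2 (-0.45, adjusted p = 0.137) or library 3 (-0.45, adjusted p = 0.065). In neuroblast, 105, 114 and 113 CPM in dividing cells stood against 268, 255 and 198 CPM in resting cells. In microglia, means of 44.4 and 54.1 CPM gave a difference of -0.24 that did not pass (adjusted p = 0.343), though it did after centring on the median gene (adjusted p = 0.0422). The 2 Hist3 genes lie next to each other on the plus strand and shared the order of classes at rest only in part: in resting cells Hist3h2ba averaged 566, 198, 21.02, 19.5 and 2.37 CPM in neuroblast, OPC, microglia, astrocyte and endothelium, and Hist3h2a 240, 86.9, 54.1, 56.2 and 34.96 CPM.

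Hist1h2bc was spread more evenly over the classes. In dividing and resting cells it averaged 201 and 171 CPM in astrocyte, 111 and 60.3 CPM in OPC, 121 and 80.6 CPM in neuroblast, 154 and 95.6 CPM in microglia, and 184 and 155 CPM in endothelium. It rose by 0.78 in OPC (adjusted p = 0.00118), 0.63 in microglia (adjusted p = 0.0123) and 0.52 in neuroblast (adjusted p = 0.0185, all limma), and did not pass in astrocyte (0.20) or endothelium (0.23). The neuroblast call was lost under 6 of 15 alternatives, among them without library 3 (0.12, adjusted p = 0.62), in which resting cells had 55.3 CPM against 91.1 and 95.4 CPM in libraries 1 and 2. The microglia call was lost under 3, without library 2 among them (0.62, adjusted p = 0.149). In astrocyte, requiring at least 3 of the 4 proliferation genes gave a fall of 0.48 (adjusted p = 0.0327) in place of the 0.20.

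Hist1h1c was highest at rest in endothelium, where dividing cells averaged 109 ± 6.9 CPM and resting cells 94.1 ± 6.4 CPM and the difference of 0.19 did not pass. In OPC, where resting cells were lowest, it averaged 62.7 CPM in dividing and 15.4 CPM in resting cells and rose by 1.51 (adjusted p = 5.18e-09, limma). It rose by 1.16 in microglia, with 131 and 53.3 CPM, by 0.77 in neuroblast, with 111 and 62.4 CPM, and by 0.70 in astrocyte, with 55.7 and 30.4 CPM. The astrocyte call was lost when the states were matched on detected genes (0.50, adjusted p = 0.116) and without library 2 (0.57, adjusted p = 0.0655). Its interaction of class and state had an adjusted p of 0.000415. Hist1h1e rose in every class, by 2.48 in neuroblast, 2.34 in microglia, 1.77 in OPC, 1.63 in endothelium and 1.59 in astrocyte, and its interaction was just past the threshold (adjusted p = 0.0455). Resting neuroblast cells of library 3 stood apart, with 42.7 CPM of Hist1h1e against 145 and 136 CPM in libraries 1 and 2.

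By class, the members that rose and fell, of the 15 tested, numbered 11 and 1 in astrocyte (13.8 and 4.63% of all genes), 13 and 2 in OPC (12.2 and 5.32%), 13 and 2 in neuroblast (25.5 and 9.99%), 13 and 0 in microglia (10.7 and 2.86%) and 11 and 1 in endothelium (13.5 and 24.9%). The 0 in microglia held at an unadjusted p under 0.05 in limma too. With no level filter, members called in either direction, of 63, were 14 in astrocyte (11.7% of all genes), 20 in OPC (10.0%), 38 in neuroblast (18.0%), 36 in microglia (7.42%) and 22 in endothelium (22.1%). Apart from members named above, the difference that did not pass was that of Hist1h4i in astrocyte (0.73, adjusted p = 0.0681). It did pass with a library block per class (adjusted p = 0.0455), without library 1 (1.12, adjusted p = 0.0424) and with cells of several classes kept (1.09, adjusted p = 8.40e-05). In each class Hist1h2ap, Hist1h1b and Hist1h2ae had the 3 largest differences. Hist1h2ap averaged 276 and 6.96 CPM in dividing and resting astrocyte cells, 432 and 14.2 CPM in OPC, 865 and 39.0 CPM in neuroblast, 407 and 8.89 CPM in microglia and 554 and 7.98 CPM in endothelium. Its difference was 4.08, 4.19, 4.21, 4.51 and 4.97 in these classes. Hist1h1b averaged 164 and 4.89 CPM in dividing and resting astrocyte, 218 and 3.32 CPM in OPC, 408 and 8.65 CPM in neuroblast, 193 and 2.47 CPM in microglia and 285 and 1.65 CPM in endothelium. Hist1h2ae averaged 742 and 31.6 CPM in neuroblast, while its dividing mean in the other classes lay between 136 and 295 CPM.

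**Figure D3:**
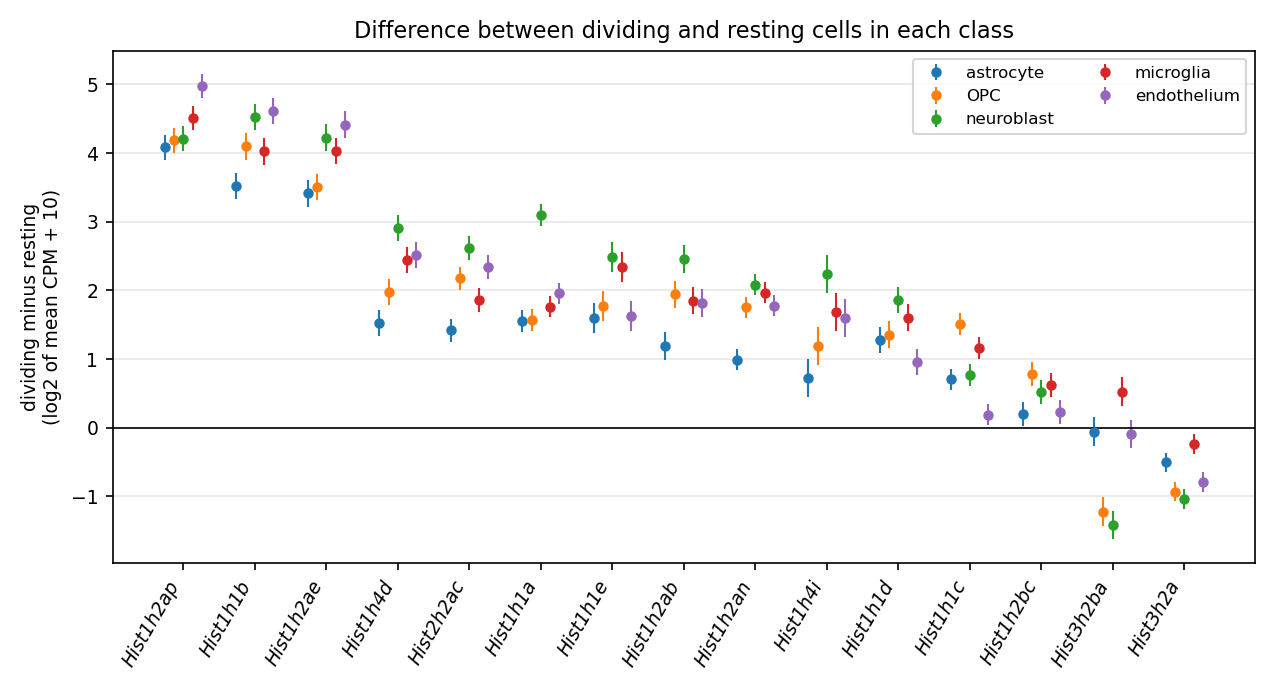
Difference of dividing minus resting cells, in log2(CPM + 10), for the 15 members past the filter, 1 point per class with bars of 1 SE. Hist1h2ap, Hist1h1b and Hist1h2ae lie at 3.42 or above in all classes, and the classes are spread most for Hist3h2ba, from -1.42 in neuroblast to 0.53 in microglia.

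Neuroblast cells had the highest dividing level of many members. Hist1h1a had 85.3, 87.3 and 84.9 CPM in dividing neuroblast cells and 1.20 CPM on average in resting ones, while its dividing mean in the other classes lay between 22.3 and 30.9 CPM. The difference of 3.10 in neuroblast compares with 1.56 in astrocyte, 1.57 in OPC, 1.76 in microglia and 1.96 in endothelium (interaction adjusted p = 1.53e-05, limma). The interaction passed in 13 of the 15 members, where 35.1% of all genes did, and missed it in Hist1h1d (adjusted p = 0.0683) and Hist1h2bc (adjusted p = 0.174). The calls of Hist1h2ap and Hist1h1e were lost with no library block (adjusted p = 0.0601 and 0.0708). This count was not stable: it was 3 without library 1, 7 without library 2 and 8 when the states were matched on detected genes, and with no level filter 26 of 63 passed (19.4% of all genes). Matching left the class averages close to those given: 4.30 for Hist1h2ap, 4.04 for Hist1h1b, 3.76 for Hist1h2ae, 1.83 for Hist1h1e, 0.55 for Hist1h2bc, 0.81 for Hist1h1c, -0.33 for Hist3h2ba and -0.74 for Hist3h2a. Each dividing cell was paired with the nearest unused resting cell, however far apart. In neuroblast of library 1 this took 277 of 431 resting cells. The matched states may still differ in detected genes, and this was not checked.

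The resting level itself differed between classes in 9 of the 15 members, where 92.5% of all genes tested did. Hist3h2ba led with an adjusted p of 2.26e-20, followed by Hist3h2a (8.60e-15), Hist1h1c (3.78e-12), Hist1h2ap (2.07e-08), Hist1h2bc (3.39e-08), Hist1h2ae (5.77e-08), Hist1h1e (1.63e-05), Hist1h4d (0.0107) and Hist1h1b (0.0295, all limma). Hist1h2ap at rest was highest in neuroblast, at 51.7, 44.8 and 20.3 CPM in libraries 1, 2 and 3. Hist1h1e at rest was lowest in microglia, at 57.3, 36.7 and 45.6 CPM, and highest in endothelium, at 145, 140 and 135 CPM. Endothelium and microglia did not overlap.

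Within a class, dividing cells were far from uniform. The share of dividing cells with at least 6 of the 58 members other than the 5 detected at rest above 0 averaged 56.9% in neuroblast, 36.4% in endothelium, 35.1% in microglia, 24.6% in OPC and 12.4% in astrocyte. Among resting cells it was 0.122% in endothelium and 0.0368% in astrocyte, and 0 of 1134 cells in neuroblast, 0 of 981 in microglia and 0 of 1901 in OPC, which allows shares of up to 0.265, 0.306 and 0.158% by counting error alone. Dividing cells with none of the 58 made up 6.38% in neuroblast and 27.2% in astrocyte, the lowest and highest of the 5 classes, against 55.8 to 71.3% of resting cells. The share depends on how many genes a cell shows. Only in endothelium were detected genes alike in the 2 states, and there 27.3 to 51.9% of dividing cells had 6 or more in the 3 libraries, against at most 0.365% of resting cells. The 10% of dividing cells with the most of these transcripts held 52.4% of their summed CPM in astrocyte and 25.5% in neuroblast.

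Dividing cells were then split by 4 genes that are high around the start of S phase, Ccne2, Mcm5, Hells and Clspn: at least 2 above 0 against none. OPC, neuroblast and microglia had at least 10 cells in every library and state, with 225, 267 and 147 dividing cells of the first kind and 167, 146 and 203 of the second. Median detected genes were higher in the first, at 3321 to 3552.5 against 2538 to 2990 in OPC, 2918 to 2940 against 2464 to 2577 in neuroblast and 2332.5 to 2456 against 2036 to 2237 in microglia. Of the 20 members past the filter in this fit, averaged over the 3 classes, 12 were higher with S genes (13.3% of all genes) and 4 lower (6.48%). The filter used the levels of these same groups, so a gene low in one kind of cell could pass through the other. For such genes the counts and p-values of this split are a description. Without the filter the same numbers were found among the 63 members (6.93 and 3.07%).

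**Figure D4:**
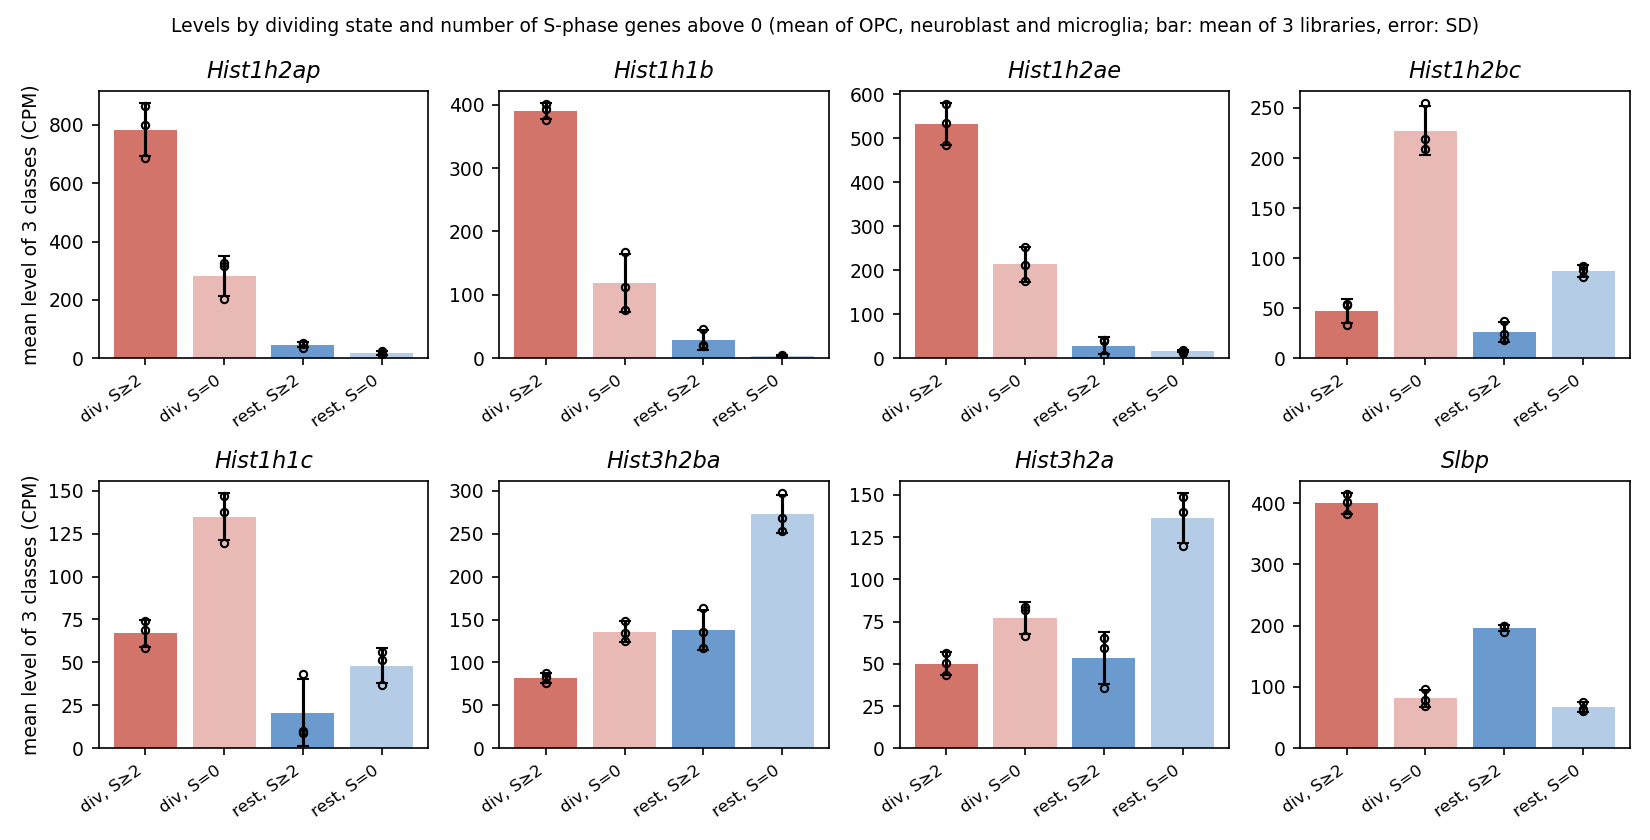
Level in CPM, mean of OPC, neuroblast and microglia, in dividing cells with at least 2 S genes, dividing cells with none, resting cells with at least 2 and resting cells with none; points are libraries and bars 1 SD around the mean. Hist1h2ap, Hist1h1b and Hist1h2ae peak in the first state and Hist1h2bc and Hist1h1c in the second, while Hist3h2ba and Hist3h2a are highest in resting cells without S genes.

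Hist1h2ap, Hist1h1b and Hist1h2ae, all scarce at rest, were among the 12 that were higher. Hist1h2ap had 865, 687 and 800 CPM in them (libraries 1, 2 and 3), against 315, 328 and 205 CPM in dividing cells without, a rise of 1.51 ± 0.14 (adjusted p = 1.20e-09, limma). Hist1h1b had 400, 393 and 376 CPM against 112, 168 and 76.3 CPM, a rise of 1.81 ± 0.15 (adjusted p = 1.22e-10). Hist1h2ae averaged 532 CPM against 214 CPM and rose by 1.34 ± 0.11 (adjusted p = 1.64e-10). The libraries were apart in all 3 genes. Hist1h1e rose by 0.87, with 511 and 270 CPM, Hist1h1a by 1.38, Hist1h1d by 1.04, Hist1h2an by 1.00, Hist1h2af by 0.77, Hist1h4d by 0.76 and Hist2h2ac by 0.73. Hist1h2ab (0.59) and Hist1h3c (0.42) were only just past the threshold and lost it under 8 and 10 of 15 alternatives, for Hist1h3c also with no library block (adjusted p = 0.0695) and with one per class (adjusted p = 0.0505). Hist1h4i (0.28), Hist1h2ag (0.11) and Hist1h2ac (-0.12) did not pass. Nor did Hist1h2bj (0.43, adjusted p = 0.0636), which passed with a library block per class (adjusted p = 0.0316) and with counts not scaled per cell (adjusted p = 0.0421).

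Hist1h2bc moved the other way. It had 33.0, 53.4 and 54.2 CPM in dividing cells with S genes, against 209, 219 and 255 CPM in dividing cells without, a fall of 2.17 ± 0.13 (adjusted p = 1.12e-13, limma). The groups did not overlap, and the fall was found in OPC (-2.42), neuroblast (-1.28) and microglia (-2.81). Resting cells without S genes, at 88.6, 92.3 and 81.0 CPM, lay between these 2 kinds of dividing cell. Hist1h1c had 68.6, 74.0 and 58.1 CPM with S genes, against 138, 120 and 147 CPM without, a fall of 0.86 ± 0.12 (adjusted p = 2.16e-06). The fall passed in microglia alone: -2.24 in microglia (adjusted p = 4.84e-09), with -0.12 in OPC and -0.23 in neuroblast that did not pass (interaction adjusted p = 5.83e-05). Hist3h2ba averaged 82.2 CPM with S genes and 136 CPM without, and Hist3h2a 50.1 and 77.2 CPM; averaged over the 3 classes they fell by 0.82 (adjusted p = 7.57e-05) and 0.79 (adjusted p = 0.000743). By class both falls passed in microglia alone. The difference of Hist3h2ba was -1.24 in microglia (adjusted p = 0.00105), -0.69 in OPC (adjusted p = 0.0956) and -0.52 in neuroblast (adjusted p = 0.17). That of Hist3h2a was -1.70 in microglia (adjusted p = 0.000161), -0.62 in OPC (adjusted p = 0.243) and -0.07 in neuroblast (adjusted p = 0.921). After centring on the median gene Hist3h2ba also passed in OPC (adjusted p = 0.0217) and neuroblast (adjusted p = 0.0466).

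The rises with S genes also differed by class. Hist1h2ap rose by 2.26 in OPC and 1.71 in neuroblast, and its difference of 0.55 in microglia did not pass (adjusted p = 0.18). Hist1h2ae rose by 2.17 and 1.57, with 0.28 in microglia (adjusted p = 0.46), and Hist1h1e by 1.48 and 1.04, with 0.08 in microglia (adjusted p = 0.886). Hist1h1b rose in all 3, by 2.66 in OPC, 1.70 in neuroblast and 1.07 in microglia, the last lost when states were matched on detected genes (0.76, adjusted p = 0.0735). This matching could act in microglia alone. In every library of OPC and neuroblast, dividing cells without S genes were fewer than those with them. All of them were therefore taken, the group means stayed the same, and the difference in detected genes remained. The interaction passed in 6 of the 20 members, where 1.21% of all genes did: Hist1h2ae (adjusted p = 0.000562), Hist1h2ap (0.0184), Hist1h1e (0.0185), Hist1h2bc (0.0185), Hist1h1b (0.0492) and Hist1h1c. That of Hist1h1b was lost with no library block (adjusted p = 0.0881). Counts of members higher and lower were 10 and 1 in OPC (4.32 and 2.17% of all genes), 8 and 1 in neuroblast (8.69 and 3.4%), and 2 and 4 in microglia (4.3 and 3.13%).

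The same split in resting cells could be made in OPC and microglia, with 73 cells each that had at least 2 S genes and none of the 4 proliferation genes, against 1643 and 711 with neither. Of 6 members past the filter, 0 were higher, also at an unadjusted p under 0.05 in limma (1.86% of all genes), and 3 lower (0.357%). On average over these classes, Hist1h2bc fell by 2.15 ± 0.24 (adjusted p = 0.000245, limma), Hist3h2a by 1.18 ± 0.20 (adjusted p = 0.0068) and Hist3h2ba by 1.02 ± 0.16 (adjusted p = 0.00393). By class, the fall of Hist1h2bc passed in microglia but not in OPC. In OPC it did pass with no library block (-1.50, adjusted p = 0.0406, limma) and with one per class (adjusted p = 0.0397). The microglia call of Hist1h2bc was lost without library 1 (adjusted p = 0.141) or 3 (adjusted p = 0.0657, limma). Hist3h2a and Hist3h2ba passed in microglia too, and both calls were lost whichever library was left out. Their adjusted p was then 0.124 to 0.217 and 0.124 to 0.196 (limma). Resting cells with S genes had more detected genes, at library medians of 2865.5 to 3072 against 2423 to 2710.5 in OPC and 1913.5 to 2100 against 1677.5 to 1862.5 in microglia. The Hist3h2ba call was lost when the groups were matched on detected genes (-0.76, adjusted p = 0.242), with a pseudocount of 1 CPM (adjusted p = 0.0735) and with at least 20 cells per group (adjusted p = 0.168). Hist1h1c (-1.13, adjusted p = 0.0698), Hist1h2ap (0.51, adjusted p = 0.355) and Hist1h1e (-0.05, adjusted p = 0.945) did not pass. Hist1h1c did pass with a library block per class (adjusted p = 0.0352), with no block (adjusted p = 0.0441), after centring (adjusted p = 0.0408) and in microglia alone, the class left at 20 cells (-1.62, adjusted p = 0.00401). Without library 1 none of the 3 falls passed, without library 2 only that of Hist1h2bc did, and without library 3 those of Hist1h2bc and Hist3h2a did. These fits have 3 residual degrees of freedom in place of 6, and the falls themselves stayed close to those given: -2.20 for Hist1h2bc and -0.95 for Hist3h2ba without library 1, and -1.04 for Hist3h2a without library 2. With no level filter, 0 of 55 members were higher (1.09%) and 4 lower (2.13%).

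Genes that act with the histones were examined from 3 lists. Among them Cenpa, Lsm11, Chaf1a, Chaf1b and Asf1b had resting means below 10 CPM and passed the filter through their dividing cells. Their direction between dividing and resting cells was fixed by that, so those counts over the lists are a description. Of 11 replacement and other histones encoded outside the clusters, averaged over the 5 classes, 9 rose in dividing cells (25.8% of all genes) and 1 fell (18.4%), H2afj, which was singled out after its value was seen. By class 7 to 10 rose and at most 2 fell, the 2 in neuroblast. The largest changes were those of Cenpa, the centromeric H3, with 465 CPM in dividing and 9.26 CPM in resting cells (4.62), and H2afx, the H2A.X of DNA damage signalling, with 539 and 39.8 CPM (3.45). H2afz (H2A.Z) had 3502 and 765 CPM (2.20), H1f0 (H1.0, a linker histone of resting cells) 702 and 300.5 CPM (1.25), and H3f3b (H3.3) 3335 and 2760 CPM (0.38). Within dividing cells, averaged over OPC, neuroblast and microglia, 0 of the 11 were higher with S genes (13.3% of all genes) and 8 were lower (6.48%). By class 6 were lower in OPC, 6 in microglia and 2 in neuroblast, where 1 was higher. In the average Cenpa fell by 1.88, H2afx by 0.49, H1f0 by 0.48, H2afz by 0.34 and H3f3b by 0.17.

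Of 11 histone pre-mRNA factors, which recognise and cut the stem-loop messages or switch their genes on, 10 were tested, and averaged over the classes 7 rose in dividing cells (25.8% of all genes) and 0 fell (18.4%), with 3 to 7 higher by class. Slbp, the stem-loop binding protein, had 213 CPM in dividing and 68.5 CPM in resting cells (1.49), Npat, the coactivator of replication-coupled histone genes, 39.9 and 19.8 CPM (0.72), and Eri1, a nuclease that trims histone messages, 64.9 and 23.9 CPM (1.17). In dividing cells Slbp reached 400 CPM with S genes and 81.8 CPM without, a rise of 2.20 (adjusted p = 4.29e-13, limma), in the direction of Hist1h2ap and opposite to Hist1h2bc. It also rose in resting cells with S genes, by 1.13 (adjusted p = 0.000308), with 196 and 66.9 CPM over the 3 classes (neuroblast, with 40 resting cells of this kind, was not in that fit). Of 13 histone chaperones 10 rose in dividing cells and 0 fell on average over the classes, against the same 25.8 and 18.4% of all genes, although 1 fell in endothelium. The largest rises were those of Asf1b (91.5 and 3.04 CPM, 2.88) and Chaf1b (52.9 and 9.39 CPM, 1.68), which both passed the filter through their dividing cells. In dividing cells 6 of the 10 factors and 9 of the 13 chaperones were higher with S genes (13.3% of all genes), and 0 of either list lower (6.48%), averaged over the 3 classes. Every count of 0 given for the averages of the 3 lists was also 0 at an unadjusted p under 0.05 (limma).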

How the data were processed

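Per the file headers and values, the deposited table holds natural log values per gene and cell. All 34958786 values above 0 became whole, within 1e-06, when ln(1 + x) was undone. The submitters' processing notes list mm10 as the build, and as tools Seurat, Cell Ranger and CASAVA 1.8; how the authors corrected the counts for depth and filtered cells and genes is not given in the sources used here. The labels' wording on tissue and RNA does not describe how single cells were made.

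Doublets were called per library with Scrublet in scanpy 1.11.5 and removed. Of the cells left, those in more than 1 class (337) and cells with 1 of the 4 proliferation genes (1187) were left out. Each remaining cell was scaled to CPM and averaged per library, class and state, with at least 10 cells each. In astrocyte and endothelium the split by S genes left fewer cells than that in a library, and so did neuroblast at rest. A limma 3.58.1 fit of log2(mean + 10 CPM) was made (R 4.3.3; trended variance, library as block, threshold 0.05) for genes with at least 10 CPM on average over classes and states. The same library gives cells of every state, so the libraries pair the states by construction; all libraries form 1 group. No count model was run, since raw depth is unknown. Python 3.11.15, numpy 2.4.6, pandas 2.3.3 and Biopython 1.88 were also used, and the fit was tested on simulated data.

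Members, lists and tests were chosen with earlier results of these data known. Members were described in full if they were among the 8 highest in dividing cells, detected at rest, or among the 3 largest calls of a class; others past the filter were named with a value. From each list the 2 largest changes and Slbp, Npat, H2afz, H3f3b and H1f0 were named; Hist1h1t, Hist2h3c1, Hist1h3c and H2afj were added after their values were seen. CPM is not per length, so levels of different genes are not compared. Alternatives are given in the closing section.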

Additional observations from a re-analysis of the deposited data

Results flagged for a closer look

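The difference between dividing and resting cells varied between the 5 classes by the interaction test (adjusted p, limma) in 13 members. In Hist3h2ba (2.015e-05) the level fell in neuroblast and OPC and was higher, without passing the test, in dividing microglia; in Hist1h1a (1.528e-05) neuroblast had the largest rise. Hist1h1c gave 0.0004149, Hist1h4d 0.00192, Hist1h2an 0.001991, Hist2h2ac 0.003572, Hist1h1b 0.0145, Hist3h2a 0.01459, Hist1h2ae 0.01497, Hist1h2ab 0.01508, Hist1h4i 0.03121, Hist1h2ap 0.03144 and Hist1h1e 0.04553. On the log2(CPM + 10) scale the rise of a low member is limited by its level in dividing cells.

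Within dividing cells, the difference with S genes varied between OPC, neuroblast and microglia in 6 members. These were Hist1h1c (5.83e-05), Hist1h2ae (0.0005619), Hist1h2ap (0.01836), Hist1h1e (0.01854), Hist1h2bc (0.01854) and Hist1h1b (0.04923). In microglia Hist1h1c fell most, and Hist1h2ap, Hist1h2ae and Hist1h1e did not pass.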

How the results depend on the processing

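Most values kept their side of the threshold and, where a call was made, their direction: of those for single genes, 3130 did, 101 lost a call, 32 gained one and 1 reversed. A change of sign where neither fit passed was counted among the 3130. The reversed one was Hist1h2bc in astrocyte, -0.48 when at least 3 of the 4 proliferation genes were required (adjusted p = 0.0327). The 15 averages over classes stayed called in the same direction under all 15 alternatives; Hist3h2ba ranged from -0.61 to -0.33 (adjusted p up to 0.0311) and Hist1h2bc from 0.24 to 0.57 (up to 0.0104). Counts of members called moved by over 1.5 times where no level filter was used: 47 on average over classes, 38 in neuroblast, 36 in microglia, 22 in endothelium and 26 for the interaction, since 63 members were then tested. The interaction count of 13 fell to 8 after matching on detected genes, and that of the resting level of 9 became 15 after centring on the median gene; the cause was not tested.

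Leaving out each library in turn gave 10 to 13 calls in astrocyte, 15 in OPC, 14 to 15 in neuroblast, 12 to 13 in microglia, 12 in endothelium, 15 on average, 3 to 12 for the interaction, 7 to 11 for the resting level, 14 to 15 for S genes in dividing cells and 0 to 2 in resting cells. With no replicate block the counts were 12, 15, 15, 13, 12 and 15 in these classes and their average, 11 for the interaction, 10 for the resting level, 15 for S genes in dividing and 4 in resting cells, so pairing by library moved none by over 1.5 times. A replicate block per class gave 13 in astrocyte and 14 in microglia. No raw depth is known, and 48 of 63 members stayed below the level filter. With at least 20 cells per group, S genes at rest could be tested in 1 class.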
